A study of Homo sapiens with 2 samples.

Results

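Cytokine genes of the interleukin-1 and interleukin-6 groups, with related epithelial cytokines, were followed in HSC-3 cells grown on top of Myogel and on plastic. The 10 genes were chosen by name. They were IL1A, IL1B, IL1RN and IL18 of the interleukin-1 family, IL6 and LIF of the interleukin-6 family, the colony-stimulating factors CSF2 and CSF3, and TNF and TSLP. Of these, 9 had at least 1 probe set that the annotation of the arrays gives to that gene alone, with 15 probe sets in all, out of 19775 genes on the arrays. No probe set was listed under CSF2, the gene of GM-CSF, in the annotation used here, and no value is given for it. IL1RN had 5 probe sets, IL1A and IL1B had 2 each, and the other 6 genes had 1 each.

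HSC-3 is an established and aggressive cell line from a squamous cell carcinoma of the human tongue, and the cells carried a red fluorescent protein from a lentivirus with a non-coding control sequence, under selection with puromycin. Cells on Myogel, a protein extract of human uterine leiomyoma used to coat the wells, were compared with cells on uncoated plastic, and 90000 cells were seeded for each surface and harvested the next day. Equal amounts of RNA from 3 wells were combined for each surface, and 1 µg of total RNA served as template for labelled cRNA. The cRNA was hybridised to 1 Affymetrix U133 Plus 2.0 array, so that 1 Myogel array and 1 plastic array were compared. The treatment label of the Myogel sample also names an uncoated plate, and its title, its source label and the methods give the coating. Both cultures received the same medium with serum, ascorbic acid and hydrocortisone, a glucocorticoid of a class known to lower the transcription of many cytokine genes.

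Epithelial cells store or release these cytokines when they are stressed or damaged, and carcinomas of the oral mucosa are known sources of several of them. IL1A and IL1B encode agonists of the receptor IL1R1, IL1RN encodes the antagonist of that receptor, and IL18 encodes a relative with its own receptor. IL-1β and IL-18 are made as precursors that caspase-1 cleaves, whereas the IL-1α precursor is itself active. IL-6 and LIF signal through the shared chain IL6ST and on to STAT3, and IL-1 and TNF signal to NF-kappaB, a transcription factor that in turn drives many cytokine genes.

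The 250 bases before an annotated start are shown for IL6 and IL1A (RefSeq, GRCh38.p14). IL6 was the cytokine gene with the largest decrease away from the floor, and IL1A kept nearly the same value on both surfaces. Capitals in the IL6 sequence (chr7:22726950-22727199, plus strand) mark a match to the NF-kappaB motif (GGG, any 3 bases, TTCC), and capitals in the IL1A sequence (chr2:112784494-112784743, minus strand) a match to the AP-1 motif (TGA, any 1 base, TCA).
IL6: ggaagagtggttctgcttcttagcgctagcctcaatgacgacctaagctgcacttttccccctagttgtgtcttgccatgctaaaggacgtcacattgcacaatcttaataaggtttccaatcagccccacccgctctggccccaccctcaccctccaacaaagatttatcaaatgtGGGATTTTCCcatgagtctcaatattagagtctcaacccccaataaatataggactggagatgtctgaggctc
IL1A: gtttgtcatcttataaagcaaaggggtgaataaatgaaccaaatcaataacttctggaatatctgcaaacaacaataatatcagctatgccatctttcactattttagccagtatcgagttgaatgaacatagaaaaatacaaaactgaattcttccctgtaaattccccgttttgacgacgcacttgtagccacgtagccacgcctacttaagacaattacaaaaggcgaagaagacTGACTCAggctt
Both motifs were searched on both strands in the 250 bases before each start in the table. The NF-kappaB motif was in 5.67% of 35116 such windows and the AP-1 motif in 6.57%. For the cytokines the table held 12 windows of 7 genes, some of them overlapping and all without LIF, CSF3 and IL18. The NF-kappaB motif was in 3 of the 12 windows, 1 each of IL6, IL1RN and TSLP, and the AP-1 motif in 3, of IL1A and IL1RN. The IL1A window of another annotated start overlaps the one shown, holds the same TGACTCA match and adds a TGAGTCA match. A match is a stretch of letters and not a measured binding site.

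The values are linear intensities with a floor of 1. Their median over 54613 probe sets was 52.5 on Myogel and 59.7 on plastic, and the median log2 fold change (FC) of Myogel over plastic over all genes was -0.07. Where a gene had several probe sets, the one with the highest mean log2 value stood for it. Genes were called bright when this mean, taken back to linear units, was at or above 142, the median over all genes. With 1 array for each surface, precision is limited by the number of arrays, the differences have no check by replicates and no p-value is given. As a measure of spread, each log2 FC was set beside the limits that enclosed 95% of the log2 FCs of the 1000 probe sets closest to it in signal. This range describes the arrays and is not a test, and it leaves 5% of the probe sets outside by construction.

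Most of the cytokine genes, like most of all genes on the arrays, stayed within FC 1.5 between the surfaces. By FC 1.5 or more, 2 of the 9 genes were higher on Myogel, 1 was lower and 6 passed in neither direction. Over all genes 9.71% were higher and 17.5% were lower by this threshold, and after quantile normalization 13.2% were higher and 12.9% lower. The 3 genes past it, LIF, CSF3 and IL6, were all below the median signal, where 51.9% of all genes passed it, 18.5% higher and 33.4% lower. The 6 bright genes, IL1A, IL1B, IL1RN, IL18, TNF and TSLP, stayed within FC 1.5, and of all bright genes on the arrays 2.59% did not. The median log2 FC was -0.05 for the 9 cytokine genes and -0.06 for the 6 bright ones, against -0.07 for all genes and -0.03 for all bright genes.

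**Figure D1:**
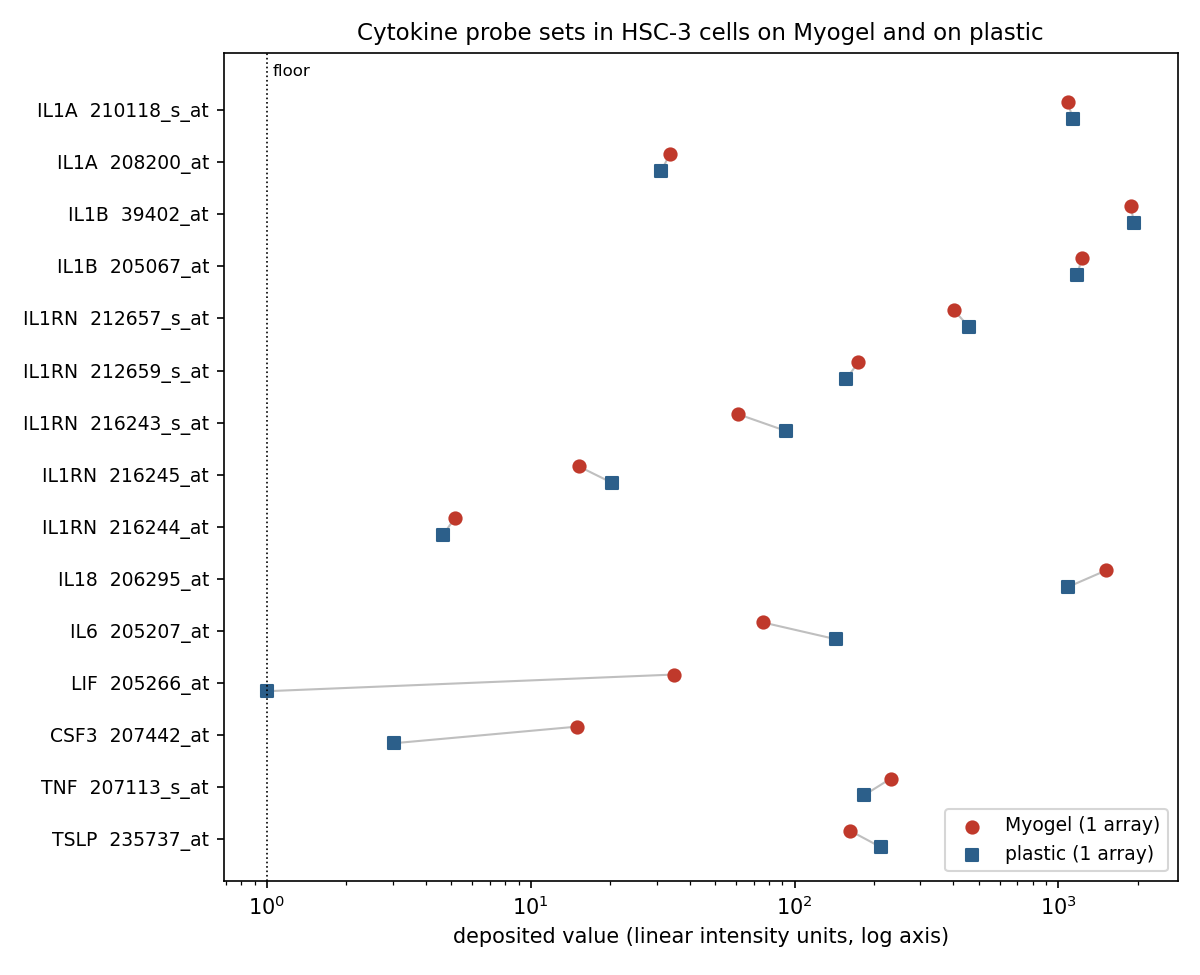
Deposited values of the 15 cytokine probe sets (x axis, linear intensity units on a log axis), with the Myogel array as red circles and the plastic array as blue squares, 1 array each. The pairs of IL1A and IL1B nearly coincide, IL18 is higher on Myogel at 1516 against 1085, and LIF is at the floor of 1 on plastic.

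The interleukin-1 agonists had high and nearly equal values on both surfaces. For IL1B, the probe set 39402_at had 1877 on Myogel and 1938 on plastic, and 205067_at had 1227 on Myogel and 1180 on plastic. Their log2 FCs of -0.05 and 0.06 had opposite signs, and the range for their signal reached at least to -0.42 and 0.39. The brighter probe set of IL1A, 210118_s_at, had 1085 on Myogel and 1134 on plastic, a log2 FC of -0.06. The dim one, 208200_at, had 33.7 on Myogel and 31.3 on plastic. Neither agonist therefore showed a direction that its probe sets shared.

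IL1RN, the antagonist, had probe sets on both sides of no change. The brightest, 212657_s_at, had 402 on Myogel and 458 on plastic, which is 1.14-fold lower, and the next, 212659_s_at, had 174 on Myogel and 157 on plastic, which is 1.11-fold higher. The probe set 216243_s_at had 61.2 on Myogel and 92.7 on plastic and was 1.52-fold lower, the only IL1RN probe set past FC 1.5. The last ones were dim, with 15.2 on Myogel and 20.4 on plastic for 216245_at, and 5.14 on Myogel and 4.65 on plastic for 216244_at. In all, 3 of the 5 probe sets were lower and 2 were higher on Myogel, and each lay inside the range for its signal.

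IL18 differed most among the bright cytokine genes. Its single probe set, 206295_at, had 1516 on Myogel and 1085 on plastic. It was 1.40-fold higher on Myogel, within FC 1.5, and its difference of 431 linear units was the only one of at least 100 among the 15 probe sets. The log2 FC of 0.48 lay just outside the range of -0.51 to 0.46 for its signal. No other cytokine probe set lay outside its range, so that 1 of 15 did.

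**Figure D2:**
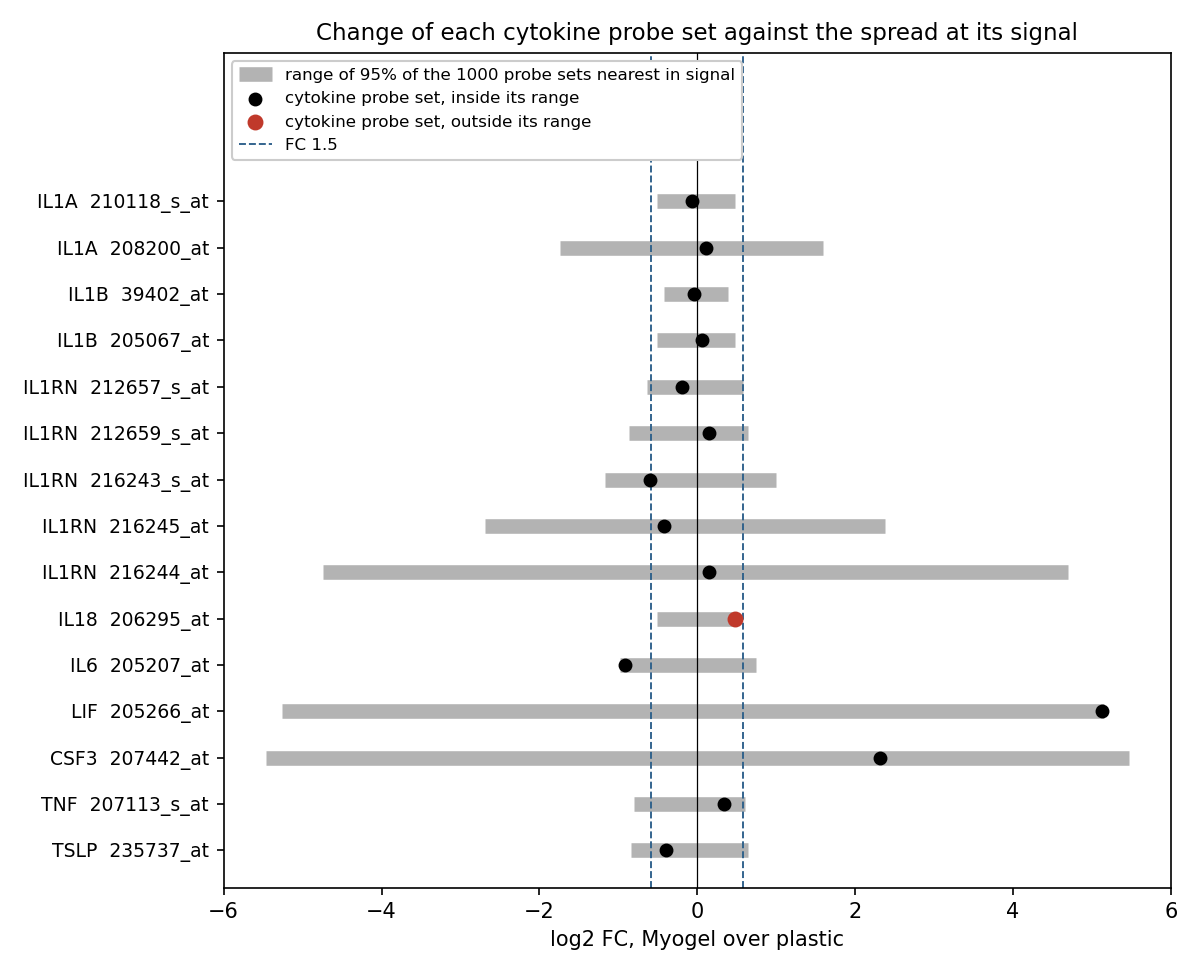
Log2 FC of Myogel over plastic (x axis) for the 15 cytokine probe sets, with grey bars for the limits around 95% of the 1000 probe sets closest in signal and dashed lines at FC 1.5. IL18, in red, lies just outside its bar at 0.48, and the bars of the dim probe sets of LIF and CSF3 span more than 5 units to either side.

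In the interleukin-6 family, IL6 and LIF differed in opposite directions at low signal. IL6, a cytokine of the acute phase response that acts through STAT3, had 76.0 on Myogel and 143 on plastic. This is 1.88-fold lower, at a log2 FC of -0.91 inside the range of -0.98 to 0.75 for its signal, with a difference of -67.1 linear units. LIF, known for its part in stem cell maintenance, had 34.9 on Myogel, and its value on plastic was the floor of 1. No fold is given against the floor, and at this signal 95% of the probe sets had a log2 FC between -5.26 and 5.15. Each of these genes had 1 probe set.

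CSF3, TNF and TSLP were likewise measured by 1 probe set each. CSF3, which drives the production of neutrophils, had 15.0 on Myogel and 3.02 on plastic, both near the floor, and its range of log2 FC reached from -5.46 to 5.47. TNF had 231 on Myogel and 183 on plastic and was 1.26-fold higher. TSLP, an epithelial cytokine that acts on dendritic cells, had 162 on Myogel and 213 on plastic and was 1.31-fold lower. Neither TNF nor TSLP left the range for its signal, which was -0.80 to 0.61 for TNF and -0.83 to 0.64 for TSLP on the log2 scale. Over the 15 probe sets, 2 passed FC 1.5 upwards and 2 downwards on Myogel, against 13.8% and 24.2% of all probe sets.

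**Figure D3:**
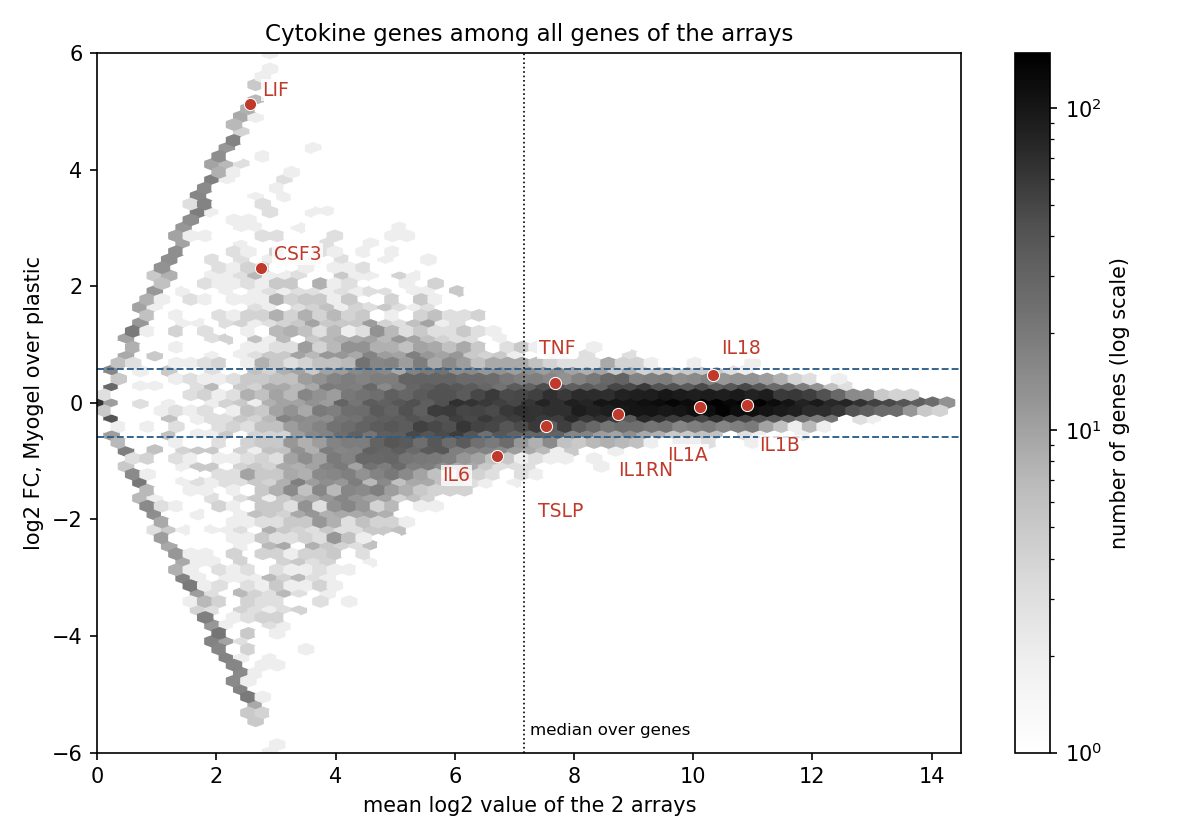
Change on Myogel relative to plastic (y axis, log2 FC) against the mean log2 value of the 2 arrays (x axis) for all genes, with the grey shade giving their number and red points the 9 cytokine genes (genes beyond -6 and 6 are not shown). Dashed lines mark FC 1.5 and the dotted line the median signal, right of which the 6 bright cytokine genes stay between the dashed lines.

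The receptor chains of these cytokines, singled out for this role after their values had been seen, were mostly either bright and close in value or dim. Of 15 chains, 7 were bright, and LIFR was the only bright one past FC 1.5 by its brightest probe set. LIFR, the receptor of LIF, had 209 on Myogel and 361 on plastic in its brightest probe set, which is 1.73-fold lower. Its log2 FC of -0.79 lay outside the range of -0.73 to 0.62 for its signal. The other 4 LIFR probe sets were under 100 on both arrays, and 4 of the 5 were lower on Myogel, while 229185_at had 64.0 on Myogel and 40.0 on plastic. IL6ST, the signaling chain shared by IL-6 and LIF, had 2653 on Myogel and 3176 on plastic, and its 7 probe sets were divided, with 3 higher and 4 lower on Myogel. Its next brightest probe set, 204863_s_at, had 755 on Myogel and 472 on plastic, and 211000_s_at had 447 on Myogel and 279 on plastic. Both went in the opposite direction to the brightest and past FC 1.5, each with a log2 FC of 0.68.

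IL6R, the chain that binds IL-6, had 4461 on Myogel and 4337 on plastic in its brightest probe set. Of its other probe sets, 205945_at had 2849 on Myogel and 2922 on plastic, and the dim 217489_s_at had 3.54 on Myogel and 79.3 on plastic. In their brightest probe sets, IL1R1, the receptor of IL-1α and IL-1β, had 389 on Myogel and 360 on plastic, and TNFRSF1A, the main receptor of TNF, had 2021 on Myogel and 1883 on plastic. The brightest probe sets of these 3 chains lay inside the ranges for their signal. IL1RAP, the second chain of the IL-1 receptor, had the largest change among the bright genes of the interleukin-1 list, with 599 on Myogel and 738 on plastic, and was 1.23-fold lower. Its log2 FC of -0.30 lay inside the range for its signal, and its other probe set, 210233_at, had 212 on Myogel and 328 on plastic and was 1.55-fold lower. The chains of the colony-stimulating factor receptors were dim, as were IL18R1, IL18RAP, IL1R2, CRLF2 and TNFRSF1B, and 6 of these 8 dim chains passed FC 1.5, 4 of them higher and 2 lower, where 18.5% of all dim genes were higher and 33.4% lower.

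Further genes of the pathways were taken from 6 lists, and 107 of their 115 genes were measured. Past FC 1.5, 11 (10.3%) were higher and 8 (7.48%) lower on Myogel, against 9.71% and 17.5% of all genes. The median log2 FC of the 107 pathway genes was 0.03. Of their 42 dim genes 26.2% were higher and 16.7% lower, against 18.5% and 33.4% of all dim genes. Of the 65 bright pathway genes, 0 were higher and 1, LIFR, was lower, against 0.93% and 1.66% of all bright genes. In the list of relatives, receptors, adaptors and maturation of IL-1 and IL-18, 2 of 29 genes were higher and 1 was lower, each of them dim, and the median log2 FC was -0.10. The other ligands of the family, named for this role after their values had been seen, were IL33, IL36A, IL36B, IL36G, IL36RN, IL37 and IL1F10. They all lay below the median signal, with values from 6.19 to 89.7 on Myogel and from 1.00 to 70.0 on plastic. CASP1, the protease that matures IL-1β and IL-18, was also named after its values had been seen. It had 2022 on Myogel and 2321 on plastic, and 4 of its 5 probe sets were lower on Myogel.

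**Figure D4:**
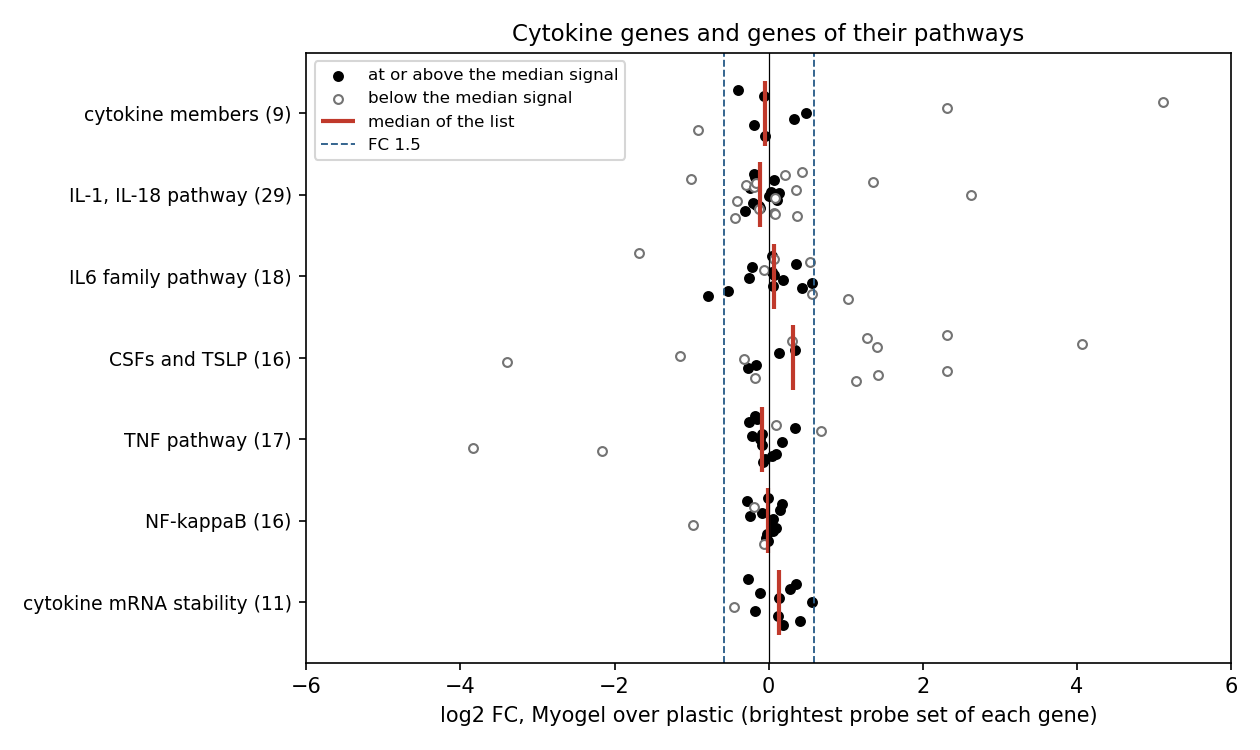
Log2 FC of Myogel over plastic (x axis) of each gene, by list, with the count of measured genes beside each list name. Filled points are genes at or above the median signal, open points dimmer genes, red bars the list medians and dashed lines FC 1.5, and of the filled points only LIFR in the IL6 family list lies beyond them.

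In the list of the interleukin-6 family with its receptors and JAK-STAT signaling, 1 of 18 genes was higher and 2 were lower, with a median log2 FC of 0.06. SOCS3, an inhibitor that STAT3 induces, had 489 on Myogel and 382 on plastic, and all 4 of its probe sets were higher on Myogel, within FC 1.5. JAK1, a kinase bound to IL6ST, had 2383 on Myogel and 1763 on plastic, with a log2 FC of 0.43 outside the range for its signal, while its next probe set, 201648_at, had 2043 on Myogel and 2027 on plastic. SOCS3 and JAK1 were singled out after their values had been seen.

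The list of colony-stimulating factors and TSLP with relatives and receptors had 7 genes higher and 2 lower of 16, and the median log2 FC was 0.32. All 9 were among the 12 dim genes of the list, in a class where 51.9% of all genes passed the threshold, and its 4 bright genes stayed within FC 1.5. CISH, a feedback inhibitor of STAT5 signaling, had the largest change among the bright ones, with 876 on Myogel and 692 on plastic, while the other 2 probe sets of CISH were lower on Myogel. Both genes of the list outside the range for their signal, named after their values had been seen, were dim. CSF2RA, the specific chain of the GM-CSF receptor, had 72.6 on Myogel and 4.34 on plastic in 211286_x_at, and 2 of its 4 probe sets were higher and 2 were lower. IL34, a ligand of the receptor CSF1R, had 105 on Myogel and 39.2 on plastic in its single probe set.

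The TNF and NF-kappaB lists each held 13 bright genes, and all of these stayed within FC 1.5. Of all bright genes on the arrays 2.59% did not, and of all dim genes 51.9% did not. In the TNF list 1 of 17 genes was higher and 2 were lower, each of them dim, and the median log2 FC was -0.09. Over all genes 9.71% were higher and 17.5% lower by FC 1.5. CASP8, the initiator caspase of the TNF receptor pathway, had the largest change among the bright genes, with 722 on Myogel and 568 on plastic, while its other 2 probe sets, both dim, were lower on Myogel. In the list of NF-kappaB subunits, kinases and inhibitors 0 of 16 genes were higher and 1, the dim NFKB2, named after its values had been seen, was lower, and the median log2 FC was -0.01. IKBKB, a kinase that activates NF-kappaB, had the largest change among its bright genes, with 263 on Myogel and 320 on plastic. Of its 3 probe sets 2 were lower on Myogel, and the dimmest, 211027_s_at, had 18.9 on Myogel and 2.55 on plastic. NFKBIA and TNFAIP3, inhibitors that NF-kappaB itself induces, were singled out after their values had been seen. NFKBIA had 5129 on Myogel and 4918 on plastic, and TNFAIP3 had 2336 on Myogel and 2179 on plastic.

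Among the 6 pathway lists, the proteins that set the stability of cytokine mRNA had the highest share of genes outside the range for their signal. It was 3 of 11, and 0 were past FC 1.5. The range leaves 5% of probe sets outside by construction, and the share over the brightest probe sets of all genes is not given. This list was ranked first after its values had been seen. Over all 107 pathway genes 7 were outside, 6 higher and 1 lower. The 3 genes were MAPKAPK2, ZFP36L1 and ZFP36L2, and ZFP36L1 and ZFP36L2 were named after their values had been seen. MAPKAPK2, a kinase downstream of p38 that stabilises cytokine mRNA, had 2427 on Myogel and 1642 on plastic and was 1.48-fold higher. Its dimmer probe sets disagreed, since 201461_s_at had 240.0 on Myogel and 73.4 on plastic, whereas 215050_x_at had 124 on Myogel and 184 on plastic. ZFP36L1, of the family of proteins that promote the decay of AU-rich mRNA, had 4194 on Myogel and 3166 on plastic, a log2 FC of 0.41, with 3 of 4 probe sets higher. ZFP36L2, of the same family, had 6699 on Myogel and 5542 on plastic, a log2 FC of 0.27, and of its 4 probe sets 2 were higher, 1 was lower and 1 was at the floor on both arrays.

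The cells carried the marks of squamous epithelium on both surfaces, and the summed markers of other cell types that make cytokines were lower on Myogel or nearly equal. KRT14, a basal keratin, had 18224 on Myogel and 18856 on plastic, SFN had 16390 on Myogel and 16249 on plastic, and all 7 measured epithelial markers stayed within FC 1.5. Of these, KRT5, the partner keratin of KRT14, had 10125 on Myogel and 11907 on plastic, and its log2 FC of -0.23 was the only one outside the range for its signal, which was -0.22 to 0.14. KRT5, CD163, TYROBP and CNN1 were named after their values had been seen. Summed values of the leukocyte markers were 556 on Myogel and 674 on plastic, with 1 of 9 genes higher and 4 lower by FC 1.5. Only 1 of the 9 was bright. Of all dim genes on the arrays 18.5% were higher and 33.4% lower by this threshold, and of all bright genes 0.93% and 1.66%. These shares also belong beside the counts of the cell types below. The median over all probe sets was lower on Myogel too, at 52.5 against 59.7 on plastic. CD163 and TYROBP were at the floor on Myogel. The brightest leukocyte markers were CD14, with 302 on Myogel and 298 on plastic, and AIF1, with 86.9 on Myogel and 139 on plastic in its brightest probe set. The other 3 AIF1 probe sets were higher on Myogel, with 38.9, 25.9 and 10.8 on Myogel, against 4.96, 1.00 and 7.03 on plastic. Fibroblast markers summed to 881 on Myogel and 974 on plastic, with 1 of 8 higher and 1 lower. The brightest were COL1A1, with 454 on Myogel and 431 on plastic in its brightest probe set, and FAP, with 111 on Myogel and 196 on plastic. COL1A1 was far dimmer in its other probe sets, the next of which, 217430_x_at, had 129 on Myogel and 127 on plastic. Of its 5 probe sets 4 were higher on Myogel. Smooth muscle markers, the cell type of the leiomyoma, summed to 1558 on Myogel and 1555 on plastic, with 1 of 8 higher and 2 lower. Their brightest were ACTA2, with 756 on Myogel and 703 on plastic, and ACTG2, with 272 on Myogel and 240 on plastic, and CNN1 was at the floor on Myogel. Endothelial markers summed to 335 on Myogel and 430 on plastic, with 1 of 6 higher and 4 lower. The brightest were PECAM1, with 186 on Myogel and 204 on plastic in its brightest probe set, and KDR, with 63.5 on Myogel and 97.5 on plastic. The next PECAM1 probe set, 208982_at, had 144 on Myogel and 119 on plastic, and of its 5 probe sets 2 were higher and 3 lower. The part of any other cell type in the values of LIF, CSF3 and IL6 was not tested.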

How the data were processed

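Labelled cRNA made from RNA pooled from 3 wells of HSC-3 cells on each surface, Myogel or plastic, was hybridised to 1 Affymetrix array. The deposited intensity values are those of the authors from dChip. Its version, model and scaling were not given in the sources used here. Samples were assigned by their titles. FC was the ratio of Myogel over plastic of these intensities without further scaling, with the threshold of FC 1.5 of the methods. By this ratio alone 9.71% of genes were higher and 17.5% lower, and of probe sets 13.8% were higher and 24.2% lower. The authors reported a far smaller share of genes at FC 1.5, and the total it refers to was not given with it. The calls here are therefore not theirs, and any further filter they applied was not given in the sources used here.

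Of 54613 probe sets that are not controls, 41091 had 1 gene symbol, updated through the RefSeq table of GRCh38.p14. Several symbols were given to 1801, which stayed without a name, and none to 11721. Cytokine genes and lists were chosen with earlier results of these data known. Named were all cytokine genes with all probe sets, in each pathway list up to 3 bright genes in each direction past FC 1.5, or else the bright gene with the largest change, and the 2 brightest of each of 5 marker lists. Genes named for another reason are marked as chosen after their values had been seen. Likeness of pattern was not computed, since 2 arrays give 1 difference per gene.

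The 11 alternatives were quantile normalization, centring by loess (span 0.3) or on the median log2 ratio, an offset of 16 or 50, a filter on low signal (at least 1 array at or above the median over probe sets), FC 2, FC 1.2, a minimum difference of 100 linear units, the mean over probe sets, and omitting the suffixes _x_at, _s_at and _a_at. Python 3.11.15 was used with pandas 2.3.3, statsmodels 0.14.6 and numpy 2.4.6, and the steps were tested on simulated data.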

Additional observations from a re-analysis of the deposited data

How the results depend on the processing

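The log2 FCs of IL6 and IL18 kept their direction under the 5 alternatives that changed their values (3 scalings and 2 offsets), from -0.81 to -0.62 for IL6 and from 0.46 to 0.59 for IL18, which passed FC 1.5 only with the median log2 ratio set to 0. The signs of IL1A and IL1B turned in 3 and 2 of the 8 alternatives run on values, within log2 FCs of -0.06 and 0.11. Over the 9 cytokine genes the median, a log2 FC of -0.05 as deposited, lay between -0.06 and 0.06 and was above 0 in 3 of these. With an offset of 16 or 50, the log2 FC of LIF was 1.58 or 0.74, and that of CSF3 was 0.29 with an offset of 50.

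Counts of cytokine genes past the threshold, 2 higher and 1 lower, moved with scaling, offsets, thresholds and filters. The higher genes became 3 with the median log2 ratio set to 0, 1 with an offset of 50 and 0 with the filter on low signal. They became 4 with FC 1.2 and 0 with a difference of 100 linear units, and the same numbers were obtained for probe sets. The lower genes became 2 with FC 1.2, 0 with FC 2 and 0 with a difference of 100. The lower probe sets, 2 as deposited, became 1 after quantile normalization, loess centring, setting the median to 0, either offset, or omitting probe sets with the suffixes _x_at, _s_at or _a_at, which left 8 of the 9 genes, and 4 with FC 1.2, 0 with FC 2 and 0 with a difference of 100. Of the pathway genes, 11 higher and 8 lower as deposited, the higher became 16 after quantile normalization or loess centring and 15 with the median log2 ratio set to 0, where 8 were lower in each. They became 7 and 2 with offsets of 16 and 50, 3 with the filter, 26 with FC 1.2 and 0 with a difference of 100. With the mean over probe sets 15 were higher. The lower became 5 and 1 with the offsets, 1 with the filter, 18 with FC 1.2, 1 with a difference of 100 and 14 with the mean over probe sets. Over all genes, shares higher and lower moved too, from 9.71% and 17.5% as deposited. They were 13.2% and 12.9% after quantile normalization, 13.3% and 12.9% after loess centring, and 11.3% and 15.2% after setting the median to 0. Offsets of 16 and 50 gave 5.29% and 10.2%, and 1.81% and 2.89%. The filter gave 3.69% and 7.08%, FC 1.2 gave 18.1% and 30.8%, and FC 2 gave 6.36% and 10.7%. A difference of 100 gave 0.445% and 0.627%, and the mean over probe sets 11.6% and 21.4%. Fewer genes enter under the filter and when probe sets are left out. FC 1.2, FC 2 and the minimum difference change the rule of the call itself, and an offset shrinks the ratios of low values by arithmetic. The cause of the other changes was not tested. No paired analysis was possible because each surface has 1 array, and for the same reason no array could be left out.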
